A study of Homo sapiens with 8 samples.

Results

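A set of 10 genes of prostaglandin biology, of the 17131 genes in the deposited table, was followed across 8 RNA-seq libraries of HaCaT cells. HaCaT cells are human keratinocytes, the cells that build the epidermis, kept as an established line. The genes are PLA2G4A, PTGS1, PTGS2, PTGES, PTGES2, PTGES3, HPGD, ABCC4, SLCO2A1 and PTGER4, found by their Entrez gene identifiers, and all 10 had enough counts to be tested. They were chosen by what is known of the pathway together with measured values of these libraries, namely their differences between the 2 groups. Their own group differences are therefore given as a description, and nothing is supported by how many of them passed a threshold.

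All 8 libraries were labelled wild type and came from cells given the M5 cocktail for 24 h, with 4 titled M5_O5 and 4 titled M5. M5 combines oncostatin M, TNF-α, IL-1α, IL-17A and IL-22, cytokines whose mixture brings keratinocytes into a psoriasis-like state. The agent tested was OTS514, an inhibitor of the kinase TOPK, given before and together with M5. The labels give opposite accounts of which group had it. By title the 4 M5_O5 libraries would be those with OTS514, but by their treatment field they had none, and the field of the 4 titled M5 names the TOPK inhibitor. Neither account is preferred here. Groups are named by title throughout, and every difference is M5_O5 relative to M5. The words rose and fell stand only for higher and lower in M5_O5, not for an effect of the inhibitor. If the treatment field holds, a gene described as higher in M5_O5 was lower with the inhibitor. No culture without M5 was analysed here, so nothing is said of induction by M5. Nothing in the labels says that the libraries came from separate cultures, so p-values measure only the spread between these libraries, which may be technical.

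Total counts ranged from 13708055 to 16922693 per library, with the lowest total in M5 replicate 1. All 13 keratinocyte markers checked were detected, with summed levels of 14627 to 15819 CPM (counts relative to library size) in the M5_O5 libraries and 17975 to 19906 in the M5 libraries. Of 9 endothelial markers 7 were in the table. PECAM1, TEK, TIE1 and CLDN5 had at most 3 counts in any library, ERG had 2 to 9 and VWF 1 to 12, while CDH5 had 48, 42, 57 and 53 in M5_O5 and 6, 3, 7 and 3 in M5.

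Prostaglandins are lipid mediators made from arachidonic acid. A phospholipase releases the fatty acid from membranes, a cyclooxygenase converts it to prostaglandin H2, and a terminal synthase turns that into prostaglandin E2 (PGE2). PGE2 leaves the cell, acts on EP receptors of neighbouring cells, and is taken up again and oxidised. In skin it is known as a mediator of inflammation, of vessel dilation and of keratinocyte growth.

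Promoter sequences of 9 of the 10 genes were matched in the RefSeq table of GRCh38.p14. SLCO2A1 had no entry. They are shown for 3 genes the values below turn on: PTGS2, the most abundant cyclooxygenase, and ABCC4 and PTGER4, which were both higher in M5_O5. Each is the window of 300 bases from 250 before the start site to 50 after it, 5′ to 3′ on the gene's own strand, at chr1:186680374-186680673 (minus strand), chr13:95301402-95301701 (minus strand) and chr5:40679665-40679964 (plus strand). Capitals mark motif matches on either strand, apart from the GC box.

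PTGS2: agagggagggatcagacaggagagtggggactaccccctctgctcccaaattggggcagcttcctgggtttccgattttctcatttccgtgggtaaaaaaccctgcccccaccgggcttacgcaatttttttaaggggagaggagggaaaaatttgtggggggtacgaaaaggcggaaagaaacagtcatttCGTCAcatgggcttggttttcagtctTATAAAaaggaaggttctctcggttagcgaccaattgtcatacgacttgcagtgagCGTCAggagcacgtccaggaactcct
ABCC4: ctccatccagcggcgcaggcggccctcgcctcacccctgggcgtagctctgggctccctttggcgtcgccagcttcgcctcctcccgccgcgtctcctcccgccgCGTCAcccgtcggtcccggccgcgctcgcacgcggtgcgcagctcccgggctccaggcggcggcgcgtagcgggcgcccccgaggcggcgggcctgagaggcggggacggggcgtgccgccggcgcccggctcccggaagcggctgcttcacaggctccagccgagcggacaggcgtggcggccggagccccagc
PTGER4: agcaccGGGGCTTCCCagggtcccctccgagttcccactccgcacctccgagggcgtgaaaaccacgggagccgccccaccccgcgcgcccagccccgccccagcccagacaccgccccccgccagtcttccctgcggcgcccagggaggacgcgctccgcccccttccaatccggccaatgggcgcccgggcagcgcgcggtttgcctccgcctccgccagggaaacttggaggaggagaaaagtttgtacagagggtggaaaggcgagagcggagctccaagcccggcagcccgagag

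The motifs searched were the TATA box (TATAAA), the GC box (GGGCGG), the full cAMP response element (TGACGTCA) and its shorter core (TGACG, also counted inside the full element), the AP-1 site (TGANTCA), a STAT site (TTCNNNGAA), an ATF4-CEBP site (TGATGNAA) and the NF-κB consensus. The PTGS2 window held a TATA box that begins at position -32, with the start site counted as 0, and the core of the cAMP element at -58 and 24. Of all 35116 promoter windows, 11.5% held the TATA box and 24.6% the core. The ABCC4 window held the core once, at -145. The PTGER4 window held an NF-κB match at -244, found in 5.91% of windows, and 4 GC boxes, which 45% of windows have at least once. None of the 3 windows held the full cAMP element, the AP-1, the STAT or the ATF4-CEBP letters, which 1.85%, 7.71%, 7.66% and 3.62% of windows hold. The windows were 50.7% GC for PTGS2, 79.7% for ABCC4 and 72% for PTGER4, against a median of 58.7% over all windows.

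The 10 genes spanned more than 2 orders of magnitude in level. On the TPM scale, which divides by transcript length and so allows genes to be compared, PTGES led with 309 ± 12.6 TPM (SD, n = 4) in the M5_O5 libraries and 275 ± 20.4 in the M5 libraries. PTGS2 followed with 272 ± 19.8 and 254 ± 25.2 TPM, PTGES3 with 204 ± 24.8 and 179 ± 24.6, and PTGES2 with 81.5 ± 10.1 and 63.5 ± 4.12. PLA2G4A stood at 16.2 ± 1.64 and 14.1 ± 1.75 TPM. The other 5 genes had mean levels under 7 TPM in both groups.

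The order of the upper 5 levels was the same in both groups. In the M5 libraries the ranges of PTGES and PTGS2 overlapped, so that their order there is not beyond their spread, while in M5_O5 they did not. The lower 5 changed places. In M5_O5 the order was SLCO2A1 (6.05 TPM), ABCC4 (5.84), HPGD (1.84), PTGER4 (1.17) and PTGS1 (1.15), with overlapping ranges for SLCO2A1 and ABCC4 and for PTGER4 and PTGS1. In M5 it was HPGD (2.58), ABCC4 (2.08), SLCO2A1 (1.01), PTGS1 (0.862) and PTGER4 (0.677). Of neighbours in this order, the ranges overlapped between HPGD and ABCC4, SLCO2A1 and PTGS1, and PTGS1 and PTGER4. The range of HPGD (1.21 to 6.22 TPM) also reached those of SLCO2A1 and PTGS1, and SLCO2A1 and PTGER4 met at 0.81. HPGD led through M5 replicate 1 alone, at 6.22 TPM against 3.08 for ABCC4. In M5 replicates 2, 3 and 4 HPGD had 1.56, 1.33 and 1.21 TPM, below ABCC4 with 1.84, 1.68 and 1.73.

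**Figure D1:**
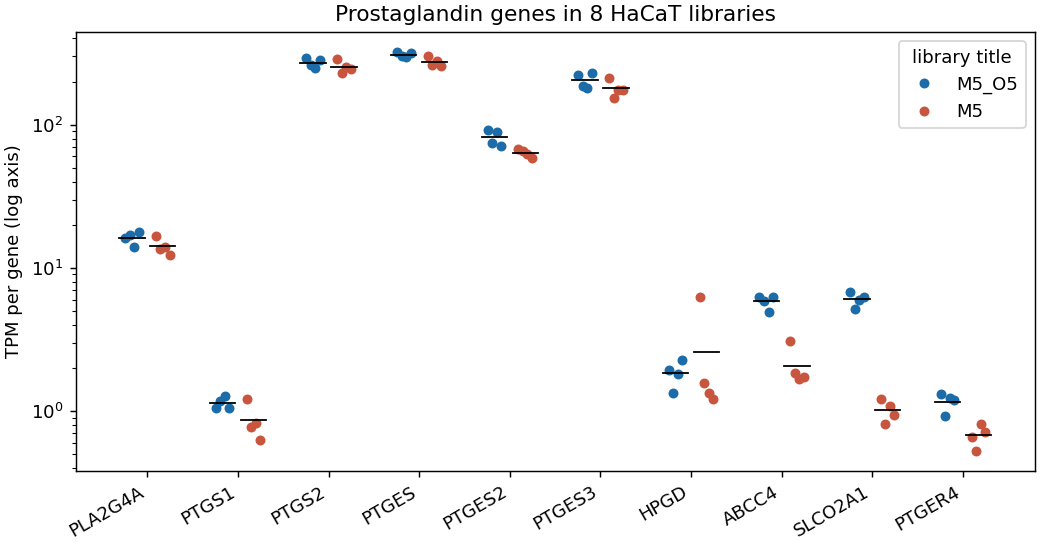
TPM per gene (log axis) of the 10 prostaglandin genes in each library, with M5_O5 in blue, M5 in red and a black line at each group mean of 4 libraries. ABCC4, SLCO2A1, PTGER4 and, on this scale, PTGES2 (71.5 to 92 against 58.3 to 67.8 TPM) have every blue point above every red one, and the other 6 genes overlap.

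Groups were compared on counts scaled by library size with the TMM factors of edgeR, over 12434 genes, with calls made at an adjusted p-value under 0.05. Of the 10 genes, 4 were called higher in M5_O5 (SLCO2A1, ABCC4, PTGER4 and PTGES2), where 19.5% of all tested genes were called higher. By the same edgeR test 0 were called lower, where 17.6% of tested genes were, and 0 were lower at an unadjusted p-value under 0.05 or by DESeq2. With a fold change of at least 2 also required, 2 were called higher, SLCO2A1 and ABCC4, against 2.87% of tested genes, and 0 lower, against 0.33%. Every M5_O5 library lay above every M5 library for 3 of the 10, SLCO2A1, ABCC4 and PTGER4, and below for 0, where 17.8% and 15.8% of tested genes were so separated. Because this contrast chose the genes, nothing is read from these counts. Over all tested genes 2420 were called higher and 2192 lower, and with library size as the only scaling 3858 and 1008. The median log2 fold change of the 10 was 0.16 and that of all tested genes 0.01.

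Transcript levels of the phospholipase PLA2G4A and of both cyclooxygenases overlapped between the groups. PTGS2 (Entrez gene 5743), the inducible cyclooxygenase known as COX-2, had 718, 704, 652 and 709 CPM in M5_O5 replicates 1 to 4 and 735, 681, 724 and 691 CPM in M5 replicates 1 to 4. The groups overlapped, and the means of 696 ± 29.4 and 708 ± 25.9 CPM (SD, n = 4) differed by less than the spread. Its log2 fold change was -0.025 (standard error 0.055) with TMM scaling, and the sign turned to 0.09 with library size as the only scaling, 0.1 on both TPM scales, 0.147 after cyclic loess, which removes a trend on expression level, and 0.005 without M5_O5 replicate 3. PTGS2 is a single transcript in the table, with 10069 to 12347 counts per library, the most counts of the 10 genes.

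PTGS1 (Entrez gene 5742), the constitutive cyclooxygenase COX-1, was present at 1.99 to 3.91 CPM. Its M5_O5 libraries had 2.96, 3.62, 3.91 and 3.09 CPM and its M5 libraries 3.65, 2.68, 2.63 and 1.99 CPM. The groups overlapped through M5 replicate 1, and the log2 fold change was 0.32 (standard error 0.18). It was 0.48 without that library. In TPM, the ratio of PTGS2 to PTGS1 lay between 194 and 277 in the M5_O5 libraries and between 236 and 387 in the M5 libraries. Of the 10 PTGS1 transcripts listed, 6 had counts. The main transcript held 76.6% of the gene's counts but 0 in M5 replicate 2, where another was given 38.85 counts, so PTGS1 is described here only as a gene.

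PLA2G4A (Entrez gene 5321) encodes the cytosolic phospholipase A2 that releases arachidonic acid from membranes. It had 22.3 to 27.6 CPM in M5_O5 and 21.4 to 25.8 CPM in M5. These ranges overlapped over most of their length, and the log2 fold change was 0.08 (standard error 0.085).

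Transcripts of the terminal synthases of PGE2 overlapped as well. PTGES (Entrez gene 9536), the membrane-bound enzyme that works with COX-2, had 271, 273, 266 and 275 CPM in M5_O5 and 263, 266, 272 and 247 CPM in M5. The groups overlapped, the spread within M5_O5 was 1.43% of the mean, and the log2 fold change was 0.05 (standard error 0.05). Over the 18 alternatives it ranged from 0.02 to 0.186. PTGES was called higher in M5_O5 with library size as the only scaling, on both TPM scales and after cyclic loess, so its lack of a call depends on the scaling. PTGES3 (Entrez gene 10728), the cytosolic synthase also known as the HSP90 co-chaperone p23, had 178 to 215 CPM in M5_O5 and 170 to 203 in M5, again overlapping, with a log2 fold change of 0.07 (standard error 0.071). Processed pseudogenes of PTGES3 are annotated, so reads could have been divided between copies in counting.

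PTGES2 (Entrez gene 80142), the second membrane-associated synthase, had the largest log2 fold change of the 3 synthases. It had 69.1, 59.7, 70.4 and 54.7 CPM in M5_O5 and 52.3, 58.8, 54.2 and 50.2 CPM in M5. M5_O5 replicate 4 lay below M5 replicate 2, so the groups overlapped on the CPM scale. The log2 fold change was 0.24 (standard error 0.082), and it ranged from 0.182 to 0.3 with 1 library left out. PTGES2 was no longer called without any one of M5_O5 replicates 1 and 3 and M5 replicates 3 and 4. PTGES made up 50.5% to 53.7% of the summed TPM of the 3 synthases in the M5_O5 libraries and 51.9% to 54.6% in the M5 libraries. This share of PTGES overlapped between the groups, while PTGES2 itself did not overlap in TPM (71.5 to 92 in M5_O5, 58.3 to 67.8 in M5).

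The 2 transporters showed the largest differences of the 10. SLCO2A1 (Entrez gene 6578) encodes the prostaglandin transporter, which carries PGE2 into cells and so ends its action outside them. It had 14.8, 12.2, 13.6 and 14 CPM in M5_O5 replicates 1 to 4 and 2.63, 2.16, 2.76 and 1.74 CPM in M5 replicates 1 to 4. The lowest M5_O5 library was 4.43 times the highest M5 library. The means were 13.7 ± 1.08 and 2.32 ± 0.466 CPM (SD, n = 4), which is 5.9-fold or 2.56 on the log2 scale (standard error 0.137) and ranked 7 of the 12434 tested genes among those higher in M5_O5, or 8 by size in either direction. It rests on 28 to 255 counts per library. The main transcript carried 95.6% of them, with 97.6% in M5_O5 and 81.8% in M5. Its TPM alone was 6.58, 5, 5.64 and 6.1 in M5_O5 against 0.84, 0.81, 1.08 and 0.3 in M5. In M5 replicate 4 it was given 12.31 of the gene's 28 counts, and the whole gene was at 0.94 TPM there. SLCO2A1 is known for high levels in endothelium. Of the endothelial markers, CDH5, the only one with enough counts to be tested, was also higher in M5_O5 (2.41 to 3.38 CPM against 0.187 to 0.461). CDH5 passed the filter on low counts only through the M5_O5 libraries, so this is given as a description. The summed endothelial markers were 3.56 to 4.03 CPM in M5_O5 and 0.498 to 1.51 CPM in M5, most of which was CDH5 in M5_O5. VWF (0.178 to 0.689 CPM in M5_O5, 0.0623 to 0.784 in M5) and ERG (0.178 to 0.535 and 0.125 to 0.584) overlapped between the groups. The part of endothelial markers in the SLCO2A1 difference was not tested.

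ABCC4 (Entrez gene 10257) encodes MRP4, an ATP-driven exporter that carries PGE2, cyclic AMP and other anions out of cells. Its M5_O5 libraries had 19.9, 20, 16.9 and 20.1 CPM, and its M5 libraries 10.4, 7.05, 6.38 and 5.73 CPM. The groups did not overlap, and M5 replicate 1 lay nearest to M5_O5. The means were 19.2 ± 1.56 and 7.38 ± 2.06 CPM (SD, n = 4), which is 2.62-fold or 1.39 on the log2 scale (standard error 0.142), and it was 1.59 (standard error 0.106) without M5 replicate 1. The main transcript held 74.6% of the counts (76.8% in M5_O5 and 67.8% in M5), with 228.35 to 275.03 in M5_O5 and 51.27 to 118.85 in M5. Another held a further 17.4% (19.9% in M5_O5 and 10% in M5). A different transcript was given 18.5% of the M5 counts and 0% of those in M5_O5, so the division between transcripts differed by group. ABCC4 overlaps SNORD13G and 2 uncharacterised loci in the RefSeq table, and whether the counting used strand is not given in the sources used here.

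Importer and exporter were therefore both higher in M5_O5, by unequal amounts. In TPM, SLCO2A1 was 0.892 to 1.2 times ABCC4 in the M5_O5 libraries and 0.396 to 0.643 times in the M5 libraries, so that the ratio did not overlap between groups. Both genes were chosen with this contrast known, so nothing is read from that separation. Whether their fold changes differ was not tested.

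HPGD (Entrez gene 3248) encodes 15-hydroxyprostaglandin dehydrogenase, which oxidises PGE2 to an inactive form once it has been taken up. It had 2.62, 1.95, 2.61 and 3.15 CPM in M5_O5 and 8.76, 2.48, 2.04 and 1.87 CPM in M5. M5 replicate 1 was more than 3 times every other M5 library, and the remaining 3 overlapped with M5_O5. The log2 fold change of -0.52 (standard error 0.41) turned to 0.275 (standard error 0.199) without M5 replicate 1, so no direction is given. The counts were 30 to 120 per library. The main transcript held 100% of them in M5_O5 and 85% in M5, and in M5 replicate 1 it had 96.84 of the estimated counts, against 26.54 to 32.76 in the other M5 libraries.

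PTGER4 (Entrez gene 5734) encodes EP4, a PGE2 receptor that raises cyclic AMP. It had 2.15, 1.72, 2.13 and 2.08 CPM in M5_O5 and 1.24, 1.18, 1.71 and 1.31 CPM in M5. The groups were separate by a narrow margin, since M5_O5 replicate 2 was at 1.72 and M5 replicate 3 at 1.71 CPM. The log2 fold change was 0.57 (standard error 0.193), on 17 to 37 counts per library. It ranged from 0.502 to 0.697 with 1 library left out and was 0.282 after cyclic loess. PTGER4 was no longer called with DESeq2, without a filter or after cyclic loess. The call was also lost without any one of M5_O5 replicates 1, 3 and 4 and M5 replicates 1, 2 and 4. PTGER4 overlaps TTC33 in the RefSeq table.

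**Figure D2:**
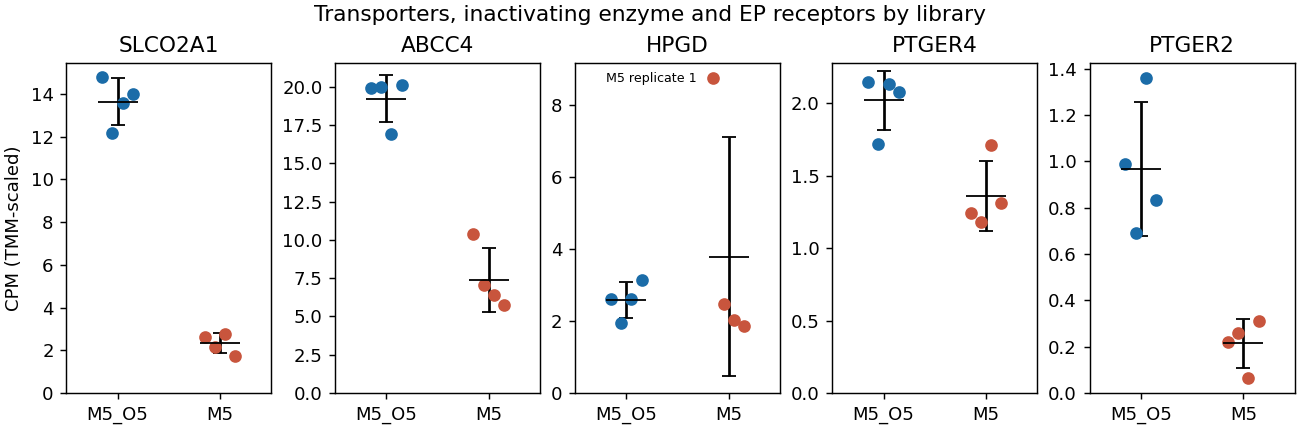
CPM scaled by TMM in each library for SLCO2A1, ABCC4, HPGD, PTGER4 and PTGER2, with points for libraries and bars for the mean and SD of 4. SLCO2A1, ABCC4, PTGER4 and PTGER2 are separate between groups, and the mean of HPGD in M5 is drawn up by replicate 1 at 8.76 CPM.

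The wider pathway was followed in a list of 47 further genes. It was written from general knowledge of the pathway, but with earlier results of these data known. Of the 47, 43 were in the table and 27 had enough counts to be tested. Of these 27, 6 were called higher in M5_O5 and 4 lower at an adjusted p-value under 0.05, where 19.5% and 17.6% of tested genes were. Both counts of the list are near those backgrounds. With a 2-fold change also required, 1 was higher, PTGER2, and 0 were lower by edgeR, by DESeq2 or at an unadjusted p-value. The median log2 fold change was 0.11.

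Among receptors, PTGER2, which encodes EP2 and like EP4 raises cyclic AMP, had 0.988, 0.689, 1.36 and 0.832 CPM in M5_O5 and 0.219, 0.261, 0.0658 and 0.311 CPM in M5. The groups did not overlap, and the log2 fold change was 2.13 (standard error 0.396). These levels rest on 12 to 23 counts per library in M5_O5 and 1 to 5 in M5. PTGER2 passed the filter on low counts only through the M5_O5 libraries, so its difference is given as a description and nothing is read from its call. PTGFRN, a binding partner of the prostaglandin F receptor, was lower in M5_O5, at 195 ± 8.73 against 247 ± 5.55 CPM (SD, n = 4), a log2 difference of -0.34 (adjusted p = 0.000177 by edgeR's quasi-likelihood test). PPARG, a nuclear receptor for oxidised lipids, had a log2 fold change of 0.35 (adjusted p = 0.208). PTGER1, PTGER3, PTGDR2, PTGFR and TBXA2R had at most 3 counts in any library and were not tested.

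Other prostanoid enzymes moved in both directions. AKR1C3, which makes prostaglandin F and also reduces steroids, rose from 62.4 ± 3.56 to 91.9 ± 0.644 CPM (0.56, adjusted p = 6.71e-06). CBR1, a carbonyl reductase that also acts on PGE2, rose by 0.53 (adjusted p = 0.000194) and PRXL2B, a prostamide and prostaglandin F synthase, by 0.55 (adjusted p = 0.00152). With 1 row per transcript PRXL2B stood at 0.91 (adjusted p = 0.0246 by the same edgeR test), so its size depends on which rows are counted. AKR1B1, an aldose reductase with prostaglandin F synthase activity, was lower, at 151 ± 20.6 against 204 ± 23.7 CPM (-0.43, adjusted p = 0.00265), and this did not pass on the TPM scales (adjusted p = 0.0825 and 0.0815). CBR3 had a log2 fold change of -0.25 (adjusted p = 0.444). PTGDS, PTGIS and TBXAS1, the synthases of prostaglandin D2, prostacyclin and thromboxane, had at most 2 counts in any library. The 3 tested inactivation genes, PTGR1, PTGR2 and PTGR3, had log2 fold changes from -0.12 to 0.30 and did not pass.

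Of the other transporters, ABCC2, the exporter MRP2, rose from 22.7 ± 1.28 to 35.5 ± 1.06 CPM (0.64, adjusted p = 9.14e-06). ABCC1, the related exporter MRP1, had 159 to 171 CPM in M5_O5 and 158 to 170 CPM in M5, which differed by 0.005 on the log2 scale (standard error 0.051, adjusted p = 0.951). SLCO4A1, a family member of SLCO2A1, went the other way, at 181 ± 4.04 against 222 ± 15.6 CPM (-0.29, adjusted p = 0.00145), which did not pass on the TPM scales (adjusted p = 0.0566 and 0.0596). SLCO3A1 had a log2 fold change of 0.11 (adjusted p = 0.142). A higher level was thus not shared by all measured members of either transporter family. Differences between family members were not tested.

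On the side of arachidonic acid release, MGLL, the monoacylglycerol lipase, rose by 0.35 (adjusted p = 0.0392), and it did not pass under DESeq2 (adjusted p = 0.0563), after cyclic loess (adjusted p = 0.269), or without any one of M5_O5 replicates 3 and 4 (adjusted p = 0.123 and 0.0673) and M5 replicates 1, 2 and 3 (adjusted p = 0.0766, 0.0988 and 0.0547). ANXA1, an inhibitor of phospholipase A2 that was singled out after its value was seen, fell from 2708 ± 84.4 to 2220 ± 70.1 CPM (-0.29, adjusted p = 0.00153). The other 9 tested phospholipase and release genes did not pass. PLA2G4E was the most abundant of the phospholipases, at 553 to 628 CPM, above PLA2G4A in CPM, a scale that does not correct for length, and its mean over the 8 libraries was 220 TPM against 15.2 TPM for PLA2G4A.

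**Figure D3:**
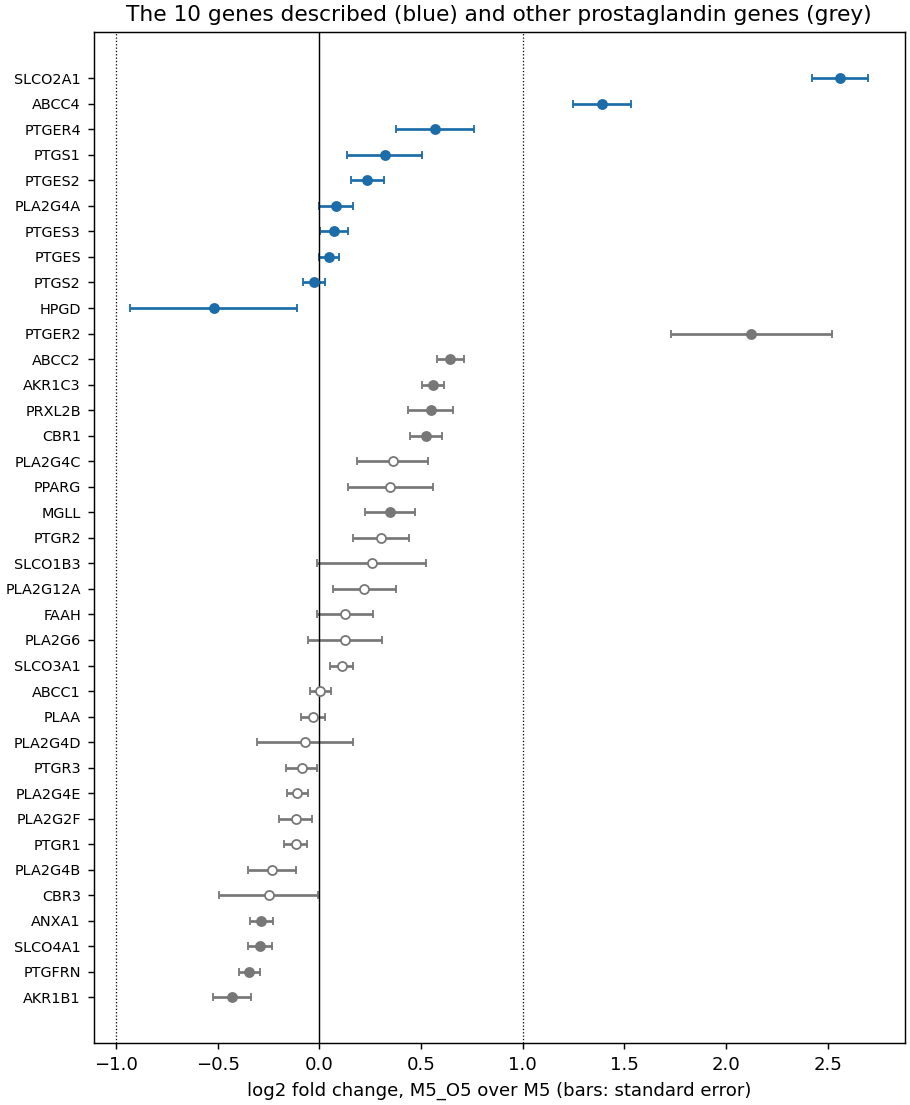
Log2 fold changes (M5_O5 over M5) with standard errors of the 10 genes (blue) and of the 27 tested genes of the wider list (grey, filled where the adjusted p-value was under 0.05), with dotted lines at 2-fold. SLCO2A1, ABCC4 and PTGER2 lie beyond the 2-fold line, and the 6 synthesis genes lie between -0.025 and 0.321.

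A further 3 neighbouring lists, also written with earlier results of these data known, were read the same way. In the lipoxygenase branch, which makes leukotrienes from the same fatty acid, 2 of 11 tested genes rose in M5_O5, ALOX5 (0.36, adjusted p = 0.0176) and LTA4H (0.27, adjusted p = 0.005), and 1 fell, GPX4 (-0.45, adjusted p = 0.000745), which reduces lipid peroxides. Over all tested genes 19.5% were called higher and 17.6% lower. ALOX5 did not pass without M5_O5 replicate 3 (adjusted p = 0.0597). The second list held genes of fatty acid desaturation, activation and esterification, general steps by which arachidonic acid also reaches membranes. Of its 11 tested genes, 5 rose, led by the acyl-CoA synthetase ACSL1 (0.49, adjusted p = 4.59e-05). They included ACSL4 (0.28, adjusted p = 0.00466), which prefers arachidonic acid, and MBOAT7 (0.21, adjusted p = 0.00841), which places it in phosphatidylinositol. Another of the 5, LPCAT2 (0.29, adjusted p = 0.0406), did not pass without any one of M5_O5 replicates 1 and 4 (adjusted p = 0.125 and 0.0858) and M5 replicates 2, 3 and 4 (adjusted p = 0.116, 0.106 and 0.0992). The acyltransferase MBOAT2 fell (-0.66, adjusted p = 8.52e-06), so that 5 of 11 were higher and 1 of 11 lower against the same 19.5% and 17.6%.

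The last list held 16 genes known to respond to cyclic AMP, the messenger of EP2 and EP4, of which 13 were tested. Of these 13, 2 rose and 3 fell, near the 19.5% and 17.6% over all tested genes, and the median log2 fold change was -0.13. The EGF receptor ligand AREG had 12, 19.8, 19.7 and 17.2 CPM in M5_O5 and 4.96, 4.64, 5.99 and 6.11 CPM in M5, and rose by 1.66 (standard error 0.157, adjusted p = 4.76e-06). RGS2, a brake on G protein signalling, rose by 1.36 (standard error 0.277) on 7 to 44 counts. Its M5 libraries, with 13, 7, 14 and 12 counts, would not have passed the filter on low counts by themselves. The difference of RGS2 is therefore given as a description, and nothing is read from its call. The kinase gene SIK1 fell by 0.81 (adjusted p = 1.59e-06), FOSB by 0.61 (adjusted p = 0.00212) and DUSP1 by 0.28 (adjusted p = 0.00518), and DUSP1 missed the threshold when library size alone set the scale (adjusted p = 0.0547) and on the TPM scales (adjusted p = 0.0584 and 0.0583). The other 8, NR4A1, NR4A2, CREM, PER1, PDE4D, FOS, CRTC3 and ATF3, did not pass, with log2 fold changes from -0.34 for NR4A1 to 0.068 for ATF3.

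**Figure D4:**
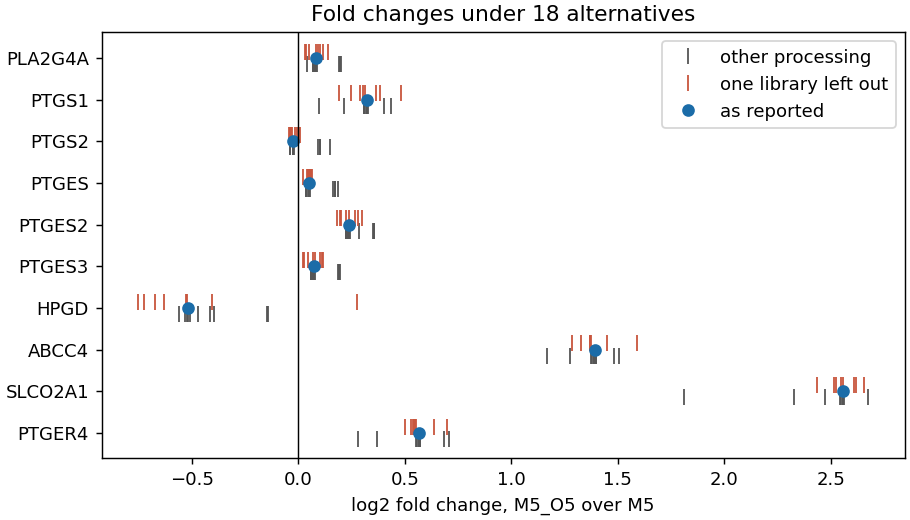
Log2 fold change (M5_O5 over M5) of each of the 10 genes as reported (blue), under 10 other ways of processing (grey) and with each of the 8 libraries left out (red). SLCO2A1 and ABCC4 stay above 1 under all 18 alternatives, while HPGD crosses 0 once and PTGS2 several times.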

How the data were processed

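RNA-seq was done on 8 HaCaT libraries. Per the study's methods, reads were filtered, mapped with HISAT2 and counted with StringTie. The submitters' processing notes list HISAT2 2.1.0, Bowtie2 2.2.5, RSEM 1.2.8 and the mouse build mm10, although the transcripts carry human RefSeq accessions, so no gene positions were taken from the table. The authors deposited an estimated count per transcript (expected count, not normalized), with TPM, scaled to the same sum in each library, and FPKM, which the authors divided by length and library size and which was not used here. Of the transcript counts, 53.8% were not whole. They were summed per Entrez gene and rounded. Symbols came from the RefSeq table of GRCh38.p14, which matched 17072 of 17131 genes.

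Genes were filtered with filterByExpr, scaled by TMM and compared with edgeR 4.0.16 (R 4.3.3) in a quasi-likelihood test with Benjamini-Hochberg adjustment over 12434 genes. Each standard error is the fold change divided by the root of F. The scripts were tested on simulated data. Other scalings and filters were tried, as were DESeq2 1.42.0, limma 3.58.1 on log2(TPM + 1) and log2(TPM + 0.1), removal of the trend on expression level by cyclic loess, the replicate number as a block, 1 row per transcript and the removal of each library. Replicates differed by more than sampling noise (chi-square per gene 2.01 to 16.28), and all were counted. This check cannot tell separate cultures from technical copies, since both can exceed sampling noise. Pairs with replicate 1 gave 10.23 to 16.28 in M5 and 7.15 to 11.15 in M5_O5. The other pairs gave 2.01 to 4.02 and 3.02 to 7.15.

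The 10 genes and all lists were chosen with earlier results of these data known. Genes named outside the 10 were those of each list with an adjusted p-value under 0.05 and at least 1 CPM, at most 8 per list, plus tested receptors and synthases. Any other gene was named after its value was seen.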

Additional observations from a re-analysis of the deposited data

Results flagged for a closer look

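A single library far from the other 3 of its group was looked for 70 times, once per gene and group. It was found 5 times, and about 1 in 20 is found by chance. Of the 20 groups of the prostaglandin genes described, 3 stood out. HPGD in M5 replicate 1 was at 8.76 CPM while the remaining M5 libraries had 1.87 to 2.48. ABCC4 in M5_O5 replicate 3 was at 16.9 CPM against 19.9 to 20.1. PTGER4 in M5_O5 replicate 2 was at 1.72 CPM against 2.08 to 2.15. In the other lists, LTA4H in M5_O5 replicate 4 was at 110 CPM against 94.3 to 96.1, and ACSL3 in M5_O5 replicate 3 at 297 CPM against 329 to 336.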

How the results depend on the processing

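All alternatives were among those planned. The number of genes called over the whole table was 398, and 152 with limma on log2(TPM + 1), a scale that understates changes of low genes. Of the 10 genes described, 2 were called with a 2-fold change under every alternative run, and 4 were past the adjusted threshold, 5 with library size as the only scaling and on both TPM scales, 3 with DESeq2 and without a filter, and 2 to 4 with 1 library left out. PTGES was the gene gained among the 5, and PTGER4 the gene lost with DESeq2 and without a filter. After cyclic loess PTGES took the place of PTGER4, as PTGS1 did without M5 replicate 1. Only SLCO2A1 and ABCC4 were left without M5_O5 replicate 1, M5_O5 replicate 3 or M5 replicate 4, and the cause was not tested. Of the wider prostaglandin list 1 gene was called, and 0 when each library had to have 10 counts or more, where PTGER2 was not tested, or with limma on log2(TPM + 1), where PTGER2 changed by 0.59. The median log2 fold change of all genes was 0.012, and 0.128 with library size as the only scaling, so that small changes shift by about that amount. With the replicate block, 10 of the 27 genes of the wider list became 11, the 10 genes described gave the same 4 calls, and calls over all genes went from 2420 higher and 2192 lower to 2703 and 2552. None of the genes named by the rule lost its call (ANXA1 and CDH5, named outside it, were not followed). The same-numbered libraries had correlations of their deviations of 0.209, 0.099, -0.004 and 0.013, not all over 0.1, so the numbers were not taken to pair the libraries. SLCO2A1 ranged from 1.809 to 2.676 and ABCC4 from 1.167 to 1.589 over the 18 alternatives. Low counts per library limit PTGER4 (17 to 37), PTGER2 (1 to 23), RGS2 (7 to 44), PTGS1 (32 to 66) and HPGD (30 to 120). SLCO2A1 is limited in the same way in the M5 libraries, with 28 to 42 counts.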
